A study of Mus musculus with 22 samples.

Results

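The genes described here are 10 heat shock genes of the cytosol and the mitochondrion, found by their symbols among the 55573 genes of a count table from mouse liver: Hspa1a, Hspa1b, Hspa8, Hsp90aa1, Dnajb1, Hspb1, Hsph1, Bag3, Hspd1 and Hspe1. Of these 10, 9 were among the 14062 genes tested, which averaged 10 or more counts per library. Hspa1a had 2 to 21 counts per library and fell under that limit. Libraries were made from mRNA of 22 livers, 1 per mouse, and had 13751347 to 21144388 counts on genes. Levels are given as CPM, a gene's counts relative to the total of its library after scaling by trimmed mean of M-values (TMM) factors.

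All mice were C57BL/6, 3-month-old animals that received their diet for 6 weeks from 6 weeks of age. All carried a single Albumin-cre transgene, whose promoter is active in hepatocytes. Cre mice were FlcnWT/WT, and FLCN KO mice were Flcn f/f, which loses folliculin in the cells that express Cre. The diets were a low-fat chow (Cre Chow, 6 livers; FLCN KO Chow, 5 livers) and a methionine- and choline-deficient diet (Cre MCD, 5 livers; FLCN KO MCD, 6 livers), from different suppliers, so that more than the missing nutrients differed between them. Each group held 3 female mice and 2 or 3 males, as read from Xist and Y-linked genes. In whole liver RNA, fewer cells of a type and less RNA per cell cannot be told apart.

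Heat shock proteins are chaperones that hold, fold or disaggregate other proteins. Unfolded proteins release the factor HSF1 from chaperones, and HSF1 then binds repeats of the letters GAA or TTC ahead of its target genes, so that Hspa1a, Hspa1b, Dnajb1, Hspb1, Hsph1, Bag3 and Hsp90aa1 are known to rise together after heat or proteotoxic stress. Hspd1 and Hspe1 are targets of the same factor but serve the matrix of the mitochondrion, where their products form the chaperonin HSP60 with its lid HSP10. In hepatocytes these chaperones are used at all times, since the cells make and secrete much protein.

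Promoter sequence came from RefSeq (GRCm38.p6), in windows of 250 bases before to 50 after each start site, and 8 of the 10 genes had an entry (all but Hspa8 and Hsp90aa1). Stretches from 4 of them are shown because Hspb1, Hsph1 and Hspe1 carried calls and Hspa1b has a near-identical copy. Dnajb1 carried a call too, and its 2 windows, not shown, held neither motif. Capitals mark 2 facing heat shock repeats (GAANNTTC or TTCNNGAA, both read alike on either strand, overlapping matches joined) and the E-box CACGTG, the core letters recognised by TFEB and TFE3, which act downstream of folliculin. The 100 bases of Hspb1 lie at chr5:135887765-135887864 (plus strand, 154 to 55 bases before the start), the 120 bases of Hsph1 at chr5:149636270-149636389 (minus strand), the 100 bases of Hspe1 at chr1:55088017-55088116 (plus strand) and those of Hspa1b at chr17:34959290-34959389 (minus strand).
Hspb1: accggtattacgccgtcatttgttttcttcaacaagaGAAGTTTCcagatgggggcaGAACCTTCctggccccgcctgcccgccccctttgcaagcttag
Hsph1: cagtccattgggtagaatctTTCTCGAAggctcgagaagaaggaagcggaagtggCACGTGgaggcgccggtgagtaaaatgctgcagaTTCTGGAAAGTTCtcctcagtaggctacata
Hspe1: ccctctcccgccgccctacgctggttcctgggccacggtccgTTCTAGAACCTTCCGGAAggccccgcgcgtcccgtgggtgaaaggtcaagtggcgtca
Hspa1b: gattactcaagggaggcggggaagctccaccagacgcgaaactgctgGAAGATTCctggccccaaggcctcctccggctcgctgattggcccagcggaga

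Facing repeats of either form stood in 15.1% of the 32851 promoter windows read, 3 repeats in a row, that is a GAANNTTC and a TTCNNGAA that overlap by 1 repeat, in 0.603%, and the E-box in 7.15%. Windows on 1 chromosome were left out of these shares. Hspb1 held 2 separate matches, GAAGTTTC and GAACCTTC. Hsph1 held TTCTCGAA ahead of its start and the triple TTCTGGAAAGTTC after it. Bag3, not shown, held GAAGTTTC 42 to 49 bases after its start. Besides Hsph1, the E-box stood in window 2 of Hspd1, not shown, 80 to 75 bases before that start. The run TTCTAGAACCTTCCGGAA at chr1:55088059-55088076 stood in the windows of both Hspe1 and Hspd1, whose annotated genes run away from each other and overlap by 112 bases. The Hspa1a window matched that of Hspa1b in 296 of 300 bases and carried the same GAAGATTC. A match of letters is a description of the sequence and does not show that a factor was bound in these livers.

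Folliculin itself was read first, as a check of the labels. Flcn lay at a lowest, median and highest of 26.1, 31.8 and 40.2 CPM in Cre Chow, and at 24.2, 19.96, 16.7, 19.4 and 21.8 CPM in the 5 FLCN KO Chow livers. Cre MCD livers had 31.8, 18.2, 39.9, 32.5 and 23.6 CPM, and FLCN KO MCD livers 17.6, 26.6 and 32.6 CPM (lowest, median, highest). The groups did not overlap on chow and overlapped on MCD. By edgeR the FLCN KO level was lower on chow by 0.63 on the log2 scale (adjusted p = 0.0249). That call was lost without Cre Chow 6, FLCN KO Chow 3 or FLCN KO Chow 4 (edgeR adjusted p = 0.0564, 0.0663 and 0.0688). It was also lost without the 5 male chow livers (-0.55, adjusted p = 0.241) and under scaling by total counts (-0.48, adjusted p = 0.0671). On MCD the difference was -0.16 (edgeR adjusted p = 0.567). Counts cover the whole gene, including exons outside the floxed part and cells without Cre, so a low value is not required of a deleted allele. Hepatocytes dominated every sample, with Alb, the albumin gene, at 46620 to 126100 CPM.

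Per kilobase of exon and in Cre Chow, the constitutive chaperones stood above the inducible ones. Exon lengths included stretches shared with other genes, whose reads may not be counted. Hspd1 had 160 CPM per kilobase, Hspa8, the constant HSP70 of the cytosol, 112, Hspe1 88.3 and Hsp90aa1, the inducible HSP90, 41.4. Bag3, which exchanges nucleotide on HSP70 and leads clients to autophagy, had 16.9 CPM per kilobase. Hsph1, a large HSP110 that reloads HSP70, and Dnajb1, the HSP40 that delivers clients to it, were close together at 7.85 and 7.52. Hspb1, the small heat shock protein that holds unfolded clients, had 4.15, and of the inducible HSP70 genes Hspa1b had 2.26 and Hspa1a 0.11. In FLCN KO Chow the level of Hspb1 was 21.8 CPM per kilobase, between those of Hsp90aa1 (48.2) and Bag3 (18.0).

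Hspb1 was the 1 gene of the 9 that passed the test between genotypes on both diets, where 8.62% (chow) and 16.6% (MCD) of all tested genes passed. It lies at chr5:135887919-135889563 on the plus strand (GRCm38, ENSMUSG00000004951, protein coding). In Cre Chow livers its lowest, median and highest levels were 2.85, 4.14 and 5.82 CPM, from 47 to 86 counts. The 5 FLCN KO Chow livers had 31.5, 13.8, 26.7, 25.9 and 14.3 CPM, from 232 to 470 counts. The lowest FLCN KO liver thus stood above the highest Cre liver, and within FLCN KO Chow livers 1, 3 and 4 were set apart from livers 2 and 5. Hspb1 was 5.25-fold higher in FLCN KO than in Cre livers on chow (log2 fold change 2.39 ± 0.23, SE, edgeR adjusted p = 6.24e-07).

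On MCD, Hspb1 measured 2.88, 3.71, 4.45, 2.57 and 3.28 CPM in the 5 Cre livers. In the 6 FLCN KO livers it ranged from 8.87 to 15.6 CPM with a median of 11.4. Again no liver of one genotype reached the range of the other. The difference was 3.55-fold (log2 fold change 1.83 ± 0.24, edgeR adjusted p = 2.09e-05). Both genotype differences passed the test with each of the 22 mice left out in turn, with log2 fold changes of 2.24 to 2.52 on chow and 1.74 to 1.94 on MCD.

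The diet moved Hspb1 as well. Between FLCN KO livers it fell by 0.90 ± 0.22 on the log2 scale from chow to MCD (edgeR adjusted p = 0.00208), although the 2 groups overlapped between 13.8 and 15.6 CPM. In Cre livers the change was -0.34 ± 0.24 (adjusted p = 0.244), and its sign turned to 0.09 when libraries were scaled by total counts. The difference between the diet responses of the 2 genotypes was -0.56 ± 0.33 and did not pass the test (adjusted p = 0.306). The 4 groups therefore ordered as FLCN KO Chow, FLCN KO MCD, Cre Chow and Cre MCD by mean (22.4 ± 7.95, 12.0 ± 2.78, 4.28 ± 1.17 and 3.38 ± 0.737 CPM, SD), with Cre Chow and Cre MCD not separated by the test. FLCN KO MCD against Cre Chow was not tested. These 2 groups did not overlap for Hspb1, but the share of all genes for which they are apart was not counted. Of the stretches of 75 bases in Hspb1 transcripts, 46.4% also occur in the pseudogene Hsp25-ps1, which had 0 to 2 counts in Cre Chow, 0 to 1 in Cre MCD and 0 to 5 in each FLCN KO group, so reads lost to that copy can lower the level of Hspb1 in all groups.

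**Figure D1:**
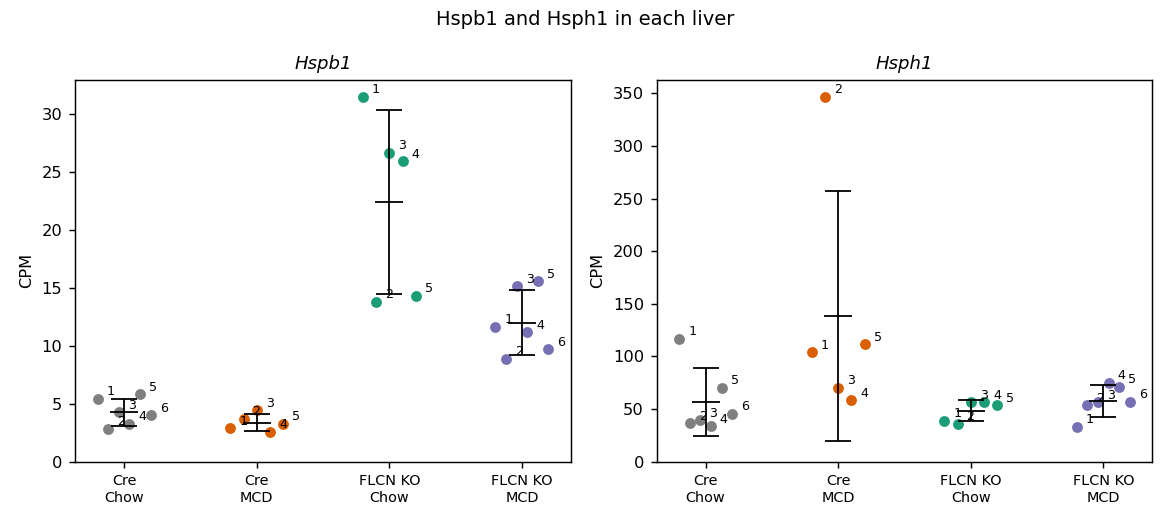
Levels of Hspb1 (left) and Hsph1 (right) in CPM in each of the 22 livers, by group, with the replicate number beside each point and the mean and SD as bars. Hspb1 in every FLCN KO liver (8.87 CPM and above) exceeds every Cre liver (5.82 CPM and below), and Hsph1 in Cre MCD 2 (346 CPM) stands far above the other 4 Cre MCD livers.

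Hsph1 differed with the diet in Cre mice, by a margin set largely by 1 liver. It lies at chr5:149614287-149636376 on the minus strand. Its levels in Cre Chow ran from 33.7 to 117 CPM with a median of 42.2, and the 5 Cre MCD livers had 104, 346, 70.3, 58.5 and 112 CPM. The groups overlapped, with Cre Chow 1 above 4 of the 5 MCD livers and Cre MCD 2 about 3 times the next one. Hsph1 rose on MCD in Cre mice by 1.28 ± 0.38 on the log2 scale (edgeR adjusted p = 0.007). Without Cre MCD 2 the difference was 0.60 and no longer passed the test (adjusted p = 0.0969). The rise did pass when Cre Chow 1 and Cre MCD 3 were left out together with Cre MCD 2, a choice made after their values were seen.

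In FLCN KO livers Hsph1 was 39.1, 36.2, 56.5, 56.5 and 53.7 CPM on chow and 33.0 to 75.1 CPM (median 56.7) on MCD, with a change of 0.25 ± 0.38 that did not pass the test (adjusted p = 0.622). On MCD its level was lower in FLCN KO than in Cre livers, by 1.26 ± 0.38 on the log2 scale (edgeR adjusted p = 0.0267), with overlapping groups. That call was lost without Cre MCD 2 (-0.58, adjusted p = 0.203), without FLCN KO MCD 1 (adjusted p = 0.0576) or 6 (0.0502), by limma-voom (0.0638), in a fit of the groups compared alone (0.0503) and with replicate numbers fitted as a block (0.12). It was also lost without Cre Chow 1, Cre MCD 2 and Cre MCD 3 (-0.665, edgeR adjusted p = 0.0838). The difference between the diet responses was -1.03 ± 0.54 (adjusted p = 0.251), so a larger response in Cre mice was not established.

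Of the mitochondrial pair, Hspe1 passed the test with the diet in FLCN KO mice and Hspd1 came close to it. Hspe1 (chr1:55088132-55091307, plus strand) measured 139, 108, 123, 147 and 126 CPM in FLCN KO Chow, and 148 to 201 CPM with a median of 182 in FLCN KO MCD. Every MCD liver of this genotype stood above every chow liver. The 2 groups were likewise apart, one way or the other, for 29.2% of all tested genes. Hspe1 rose 1.38-fold (log2 fold change 0.47 ± 0.12, edgeR adjusted p = 0.00282), and it passed the test with each of the 22 mice left out. In Cre mice Hspe1 was 117 to 140 CPM on chow (median 134) and 136, 214, 125, 131 and 152 CPM on MCD. There the groups overlapped, with Cre MCD 2 again highest, and the change of 0.22 ± 0.12 did not pass the test (adjusted p = 0.113), but passed without Cre MCD 3 (0.29, adjusted p = 0.0479) and under total-count scaling (0.65, adjusted p = 0.000114).

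Hspd1 (chr1:55077835-55088243, minus strand) was 393, 360, 394, 396 and 417 CPM in FLCN KO Chow and 371 to 492 CPM (median 474) in FLCN KO MCD, where liver 2 was lowest. Its change was 0.21 ± 0.09 (adjusted p = 0.061), and it passed by DESeq2 (adjusted p = 0.0331), with at least 10 counts in every library (edgeR adjusted p = 0.0399), without FLCN KO MCD 2 (0.017) and under total-count scaling (0.000198). The change also passed without Cre Chow 1, Cre MCD 2 and Cre MCD 3 (0.21, edgeR adjusted p = 0.0354). The difference in change between Hspd1 and Hspe1 was not tested. In Cre mice the medians were 421 CPM on chow and 390 CPM on MCD, with overlapping groups and a change of -0.12 ± 0.09 (adjusted p = 0.26). Under total-count scaling that change turned to 0.31 and passed the test (edgeR adjusted p = 0.00499). The difference between the diet responses of Hspd1 was 0.33 ± 0.13 (edgeR adjusted p = 0.104), and 0.38 without FLCN KO MCD 2 (adjusted p = 0.0457). On MCD, Hspd1 was 0.22 ± 0.09 and Hspe1 0.23 ± 0.12 higher in FLCN KO than in Cre livers on the log2 scale, neither past the test (adjusted p = 0.1 and 0.201). Without FLCN KO MCD 2 the Hspd1 difference passed (0.27, adjusted p = 0.0342), and without Cre MCD 2 that of Hspe1 (0.39, adjusted p = 0.0078). When Cre Chow 1, Cre MCD 2 and Cre MCD 3 were left out, both passed (0.32 and 0.35, adjusted p = 0.0254 and 0.0316), a choice made after their values were seen.

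Dnajb1 was lower on MCD than on chow in Cre livers, but the direction depended on the scaling. It was 21.1 to 31.2 CPM in Cre Chow (median 23.4) and 18.0, 21.7, 19.97, 22.6 and 14.3 CPM in Cre MCD. Cre Chow 1 was the highest liver and Cre MCD 5 the lowest, and the groups overlapped. Dnajb1 fell by 0.32 ± 0.12 on the log2 scale (edgeR adjusted p = 0.0258), which was lost without Cre Chow 1 (adjusted p = 0.0793), Cre MCD 1 (0.0614) or Cre MCD 5 (0.107), with no count filter (0.0697), with at least 10 counts in every library (0.0539), in a fit of the groups compared alone (0.0649), without the 5 male chow livers (0.24) and without Cre Chow 1, Cre MCD 2 and Cre MCD 3 (0.0502). Under total-count scaling the change was 0.11 (adjusted p = 0.419). In FLCN KO livers it was 18.8, 18.8, 23.4, 23.3 and 18.5 CPM on chow and 16.1 to 20.2 CPM on MCD (change -0.20 ± 0.12, adjusted p = 0.178).

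The scaling matters because TMM factors were 0.815 to 0.969 in chow libraries and 1.06 to 1.20 in MCD libraries. With total counts alone the median log2 change of all tested genes from chow to MCD was 0.43 in Cre and 0.27 in FLCN KO mice. Changes with the diet are therefore given relative to the bulk of the genes, and small ones, as in Dnajb1, Hspd1 and Hsp90aa1, change sign with that choice.

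The inducible HSP70 genes, Hspa1a (chr17:34969190-34972156) and Hspa1b (chr17:34956436-34959238), lie side by side on the minus strand and share 61.7% and 55.8% of their 75-base stretches with other genes, chiefly each other. How reads were divided between them is uncertain for that reason. Hspa1b was 2.06 to 10.2 CPM in Cre Chow (median 6.70) and 4.08, 4.70, 4.41, 3.54 and 2.87 CPM in Cre MCD. FLCN KO Chow livers had 7.86, 3.03, 11.2, 8.49 and 4.58 CPM, and FLCN KO MCD livers 1.84 to 8.20 CPM with a median of 3.55. All groups overlapped.

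Neither change with the diet passed the test for Hspa1b (-0.68 ± 0.43 in Cre mice, adjusted p = 0.182; -0.81 ± 0.42 in FLCN KO mice, adjusted p = 0.124). In FLCN KO mice it passed without FLCN KO MCD 4 (-1.15, adjusted p = 0.0305) and with sex as a covariate (-0.87, adjusted p = 0.0461). The high chow values came from particular libraries. The 5 chow libraries with a uniquely mapped share of reads under 75% (Cre Chow 1, 5 and 6, FLCN KO Chow 1 and 3) were those of the 5 male chow livers, and the other 6 were all female, so sex and library quality cannot be told apart on chow. In those 5 Hspa1b was 7.86 to 11.2 CPM, against 2.06 to 8.49 CPM in the other 6. Without those 5 libraries the change in Cre mice was 0.41 in place of -0.68 (adjusted p = 0.44). That comparison set female chow livers against MCD livers of both sexes.

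Hspa1a, under the count limit, had 2 to 8 counts in Cre Chow and 17, 14, 21, 12 and 11 counts in Cre MCD, or 0.12 to 0.54 and 0.56 to 0.98 CPM. No Cre MCD liver reached down to the chow range, and the same 2 groups were apart, one way or the other, for 32.5% of all tested genes. In a fit with no count limit the log2 fold change was 1.11 ± 0.47 (edgeR adjusted p = 0.0855 over 32124 genes), which does not pass the test. Hspa1a took 11.4 to 18.3% of the counts of both copies in Cre MCD livers and 4.24 to 8.11% in Cre Chow livers. In FLCN KO livers that share was 3.41 to 7.34% on chow and 4.26 to 16.1% on MCD.

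**Figure D2:**
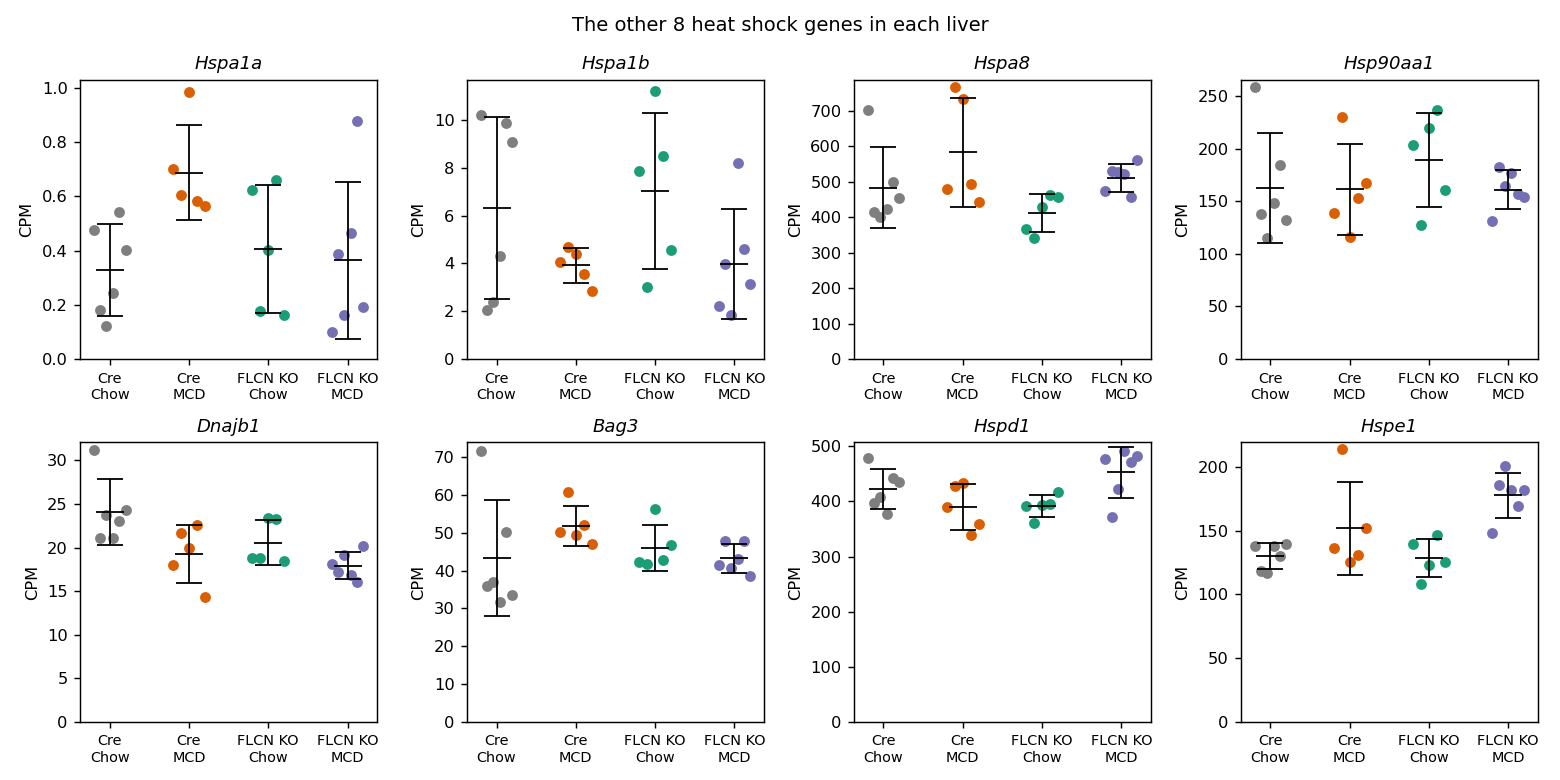
Levels in CPM of the other 8 genes in each liver by group, with the mean and SD as bars and an axis from 0 for each gene. Hspe1 in FLCN KO MCD (148 CPM and above) clears FLCN KO Chow (147 CPM and below), and Hspa1a in Cre MCD (0.56 CPM and above) clears Cre Chow (0.54 CPM and below), while other pairs of groups compared overlap.

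Hspa8, Hsp90aa1 and Bag3 passed the test in none of the 5 comparisons as fitted on all livers with TMM scaling. Hspa8 was 400 to 702 CPM in Cre Chow (median 439) and 480, 765, 732, 493 and 442 CPM in Cre MCD, a change of 0.27 ± 0.15 (adjusted p = 0.137). Cre Chow 1, Cre MCD 2 and Cre MCD 3 were the high livers here, and without Cre Chow 1 the change was 0.41 and passed (adjusted p = 0.0166), as it did without the 5 male chow livers (0.49, 0.0225) and under total-count scaling (0.71, 0.000452). In FLCN KO mice Hspa8 had medians of 428 CPM on chow and 524 CPM on MCD, with a change of 0.32 ± 0.16 (adjusted p = 0.104) that passed in a fit of the groups compared alone (0.31, adjusted p = 0.0211), without Cre Chow 1, Cre MCD 2 and Cre MCD 3 (0.32, 0.00722) and under total-count scaling (0.57, 0.00431).

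Bag3 had medians of 36.6 CPM in Cre Chow and 50.2 CPM in Cre MCD. Cre Chow 1, at 71.8 CPM, exceeded every other liver, and the next highest Cre Chow liver had 50.1 CPM against 47.1 to 60.7 CPM in Cre MCD. The change was 0.26 ± 0.16 (adjusted p = 0.167) with Cre Chow 1 and 0.46 (adjusted p = 0.00207) without it, and it also passed without the 5 male chow livers (0.57, 0.00021), without Cre Chow 1, Cre MCD 2 and Cre MCD 3 (0.41, 0.0135) and under total-count scaling (0.69, 0.000718). In FLCN KO mice the medians were 42.8 and 42.2 CPM, and the difference between the diet responses of the genotypes, -0.35 ± 0.23 (adjusted p = 0.365), became -0.55 (adjusted p = 0.0391) without Cre Chow 1 and -0.59 (adjusted p = 0.0235) without the 5 male chow livers, where Bag3 was also lower in FLCN KO livers on MCD (-0.26, adjusted p = 0.0333).

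Hsp90aa1 had medians of 143, 153, 204 and 161 CPM in Cre Chow, Cre MCD, FLCN KO Chow and FLCN KO MCD. Its changes lay between -0.24 and 0.22 on the log2 scale in all 5 comparisons, with SEs of 0.20 to 0.28. Its spread within groups was still wide, from 115 to 258 CPM in Cre Chow.

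The calls among the heat shock genes were set against those among all tested genes. From chow to MCD in Cre mice 2 of the 9 passed (Hsph1 higher, Dnajb1 lower) where 57.5% of all tested genes did, and in FLCN KO mice 2 of 9 (Hspe1 higher, Hspb1 lower) where 45% did. Between genotypes 1 of 9 passed on chow, where 8.62% of all genes passed, and 2 of 9 on MCD, where 16.6% passed. By direction the shares of all genes were 29.3% higher and 28.2% lower for the diet in Cre mice, 22.5% each way in FLCN KO mice, 5.52% higher and 3.1% lower for the genotype on chow, and 8.06% and 8.53% on MCD. For the difference between diet responses 0 of 9 passed by edgeR, limma-voom or DESeq2 (1 at an unadjusted p under 0.05 in edgeR's quasi-likelihood test), and 8.83% of all genes did by edgeR (3.29% with a higher and 5.54% with a lower response in FLCN KO mice). CPM of the groups did not overlap for 6.94% of all tested genes between genotypes on chow, 8.61% on MCD and 32.5% between diets in Cre mice; among the 9 tested genes the counts were 1, 1 and 0. The comparisons share groups, so a gene's values in them are not independent of each other.

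**Figure D3:**
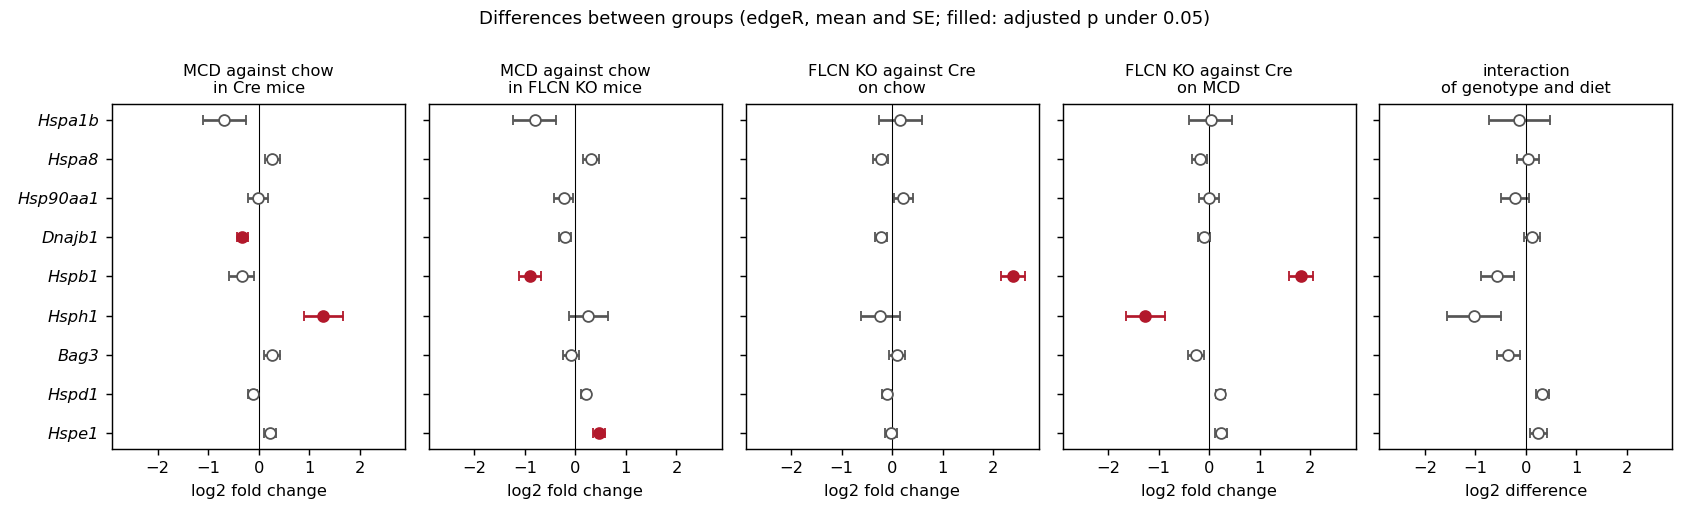
Log2 differences (points) with their SE (bars) for the 9 tested genes in the 5 comparisons, filled where the edgeR adjusted p was under 0.05. Hspb1 stands at 2.39 on chow and 1.83 on MCD between genotypes, and the other genes mostly lie within 0.5 of 0.

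Part of the variation ran across genes and within groups. After each group's mean was removed, all 45 pairs among the 10 genes correlated positively over the 22 livers, from 0.10 to 0.79 with a median of 0.45 (Pearson r of log2 CPM, as a description, since the points share library and depth). How many pairs of other genes correlate positively in this way was not counted. Hspa1a with Hspa1b (0.79), which share reads, and Hsp90aa1 with Hsph1 (0.78) were highest, and Hspd1 with Hspe1 had 0.15. The rank correlation of Bag3 with Hspe1 was only 0.01. Cre Chow 1 was the highest of its group for 7 of the 10 genes and Cre MCD 2 for 6. The mean z-score over the 9 tested genes was 1.35 in Cre Chow 1 and 1.16 in Cre MCD 2, against 0.48 in the next liver.

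Cre Chow 1, Cre MCD 2 and a further library, Cre MCD 3, stood out in other lists. The 17 chaperones of the endoplasmic reticulum summed to 12412 CPM in Cre Chow 1 and 7311 to 9498 CPM in the other Cre Chow livers. Cre MCD 3 stood apart in skeletal muscle markers: the 15 muscle markers summed to 3882 CPM there, with Myh1 most abundant and no marker at 0 in all libraries, against 190 CPM in Cre MCD 4, 92.8 CPM in FLCN KO MCD 3 and 3.50 to 31.1 CPM in the rest. Cre MCD 2, with the highest Hsph1, had 9.48 CPM of these markers, within the range of the rest. The 8 genes of the chaperonin TRiC summed to 1684 CPM in Cre MCD 2, against 939 to 1235 CPM in all other livers, and the 12 genes of the HSP90 list to 2285 CPM, against 1667 to 1737 CPM in the other 4 Cre MCD livers. Over all livers the HSP90 list was highest in Cre Chow 1, at 2420 CPM. The part of these libraries in each result beyond the values without them was not tested.

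**Figure D4:**
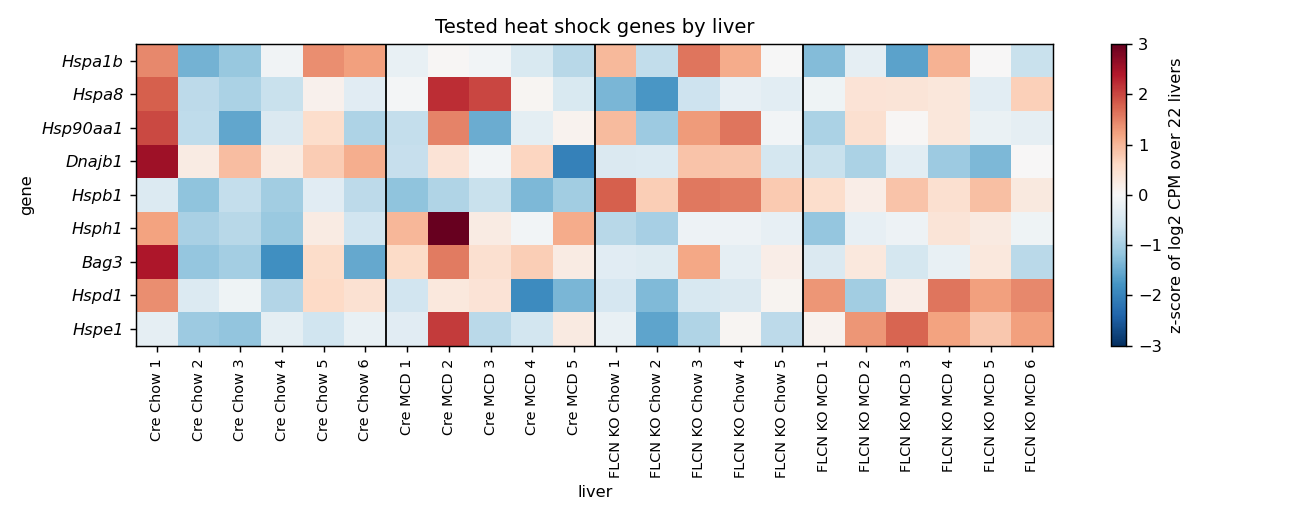
Z-scores of log2 CPM over the 22 livers (colour) for the 9 tested genes (rows) in each liver (columns, lines between groups). Cre Chow 1 and Cre MCD 2 are high in most rows (mean z-scores of 1.35 and 1.16), and Hspb1 is high in FLCN KO livers on both diets.

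The genes most like the mean z-score of the tested heat shock genes over the 22 livers, among 12838 genes of at least 1 CPM, were Snx19 (Pearson r 0.85), Usp39 (0.83), Med24 (0.81), Ppme1 (0.78) and Aars (0.76). For Hspb1 alone, looked up after its values were seen, they were Gm18860 (0.92), Dpp7 (0.92), which encodes a lysosomal peptidase, and Wdr91 (0.91). Dpp7 had 18.9 ± 3.09 and 15.4 ± 2.72 CPM in Cre livers on chow and MCD (SD) and 56.8 ± 14.6 and 38.1 ± 2.32 CPM in FLCN KO livers, the group order of Hspb1.

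The wider chaperone network was followed in 7 lists with 74 further genes, of which 71 were tested. From chow to MCD, 21 rose and 15 fell in Cre mice (50.7% called) and 20 rose and 10 fell in FLCN KO mice (42.3%), close to the shares of all genes. Between genotypes 2 were higher and 1 lower on chow (4.23%, against 8.62% of all tested genes), and 6 were higher and 4 lower on MCD (14.1%, against 16.6%). Hsf1, the regulator itself, had group medians of 11.5 to 11.8 CPM and passed in no comparison. Hsf4, a relative of Hsf1 best known from the lens, was 0.85 ± 0.16 higher in FLCN KO than in Cre livers on MCD (log2, edgeR adjusted p = 0.00121), at 13.5 to 20.7 CPM against 7.62 to 11.4 CPM with no overlap.

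Chaperones and proteases of the mitochondrion formed the list with most genes higher on MCD, 8 higher and 3 lower of 15 in Cre mice and 9 higher and 0 lower in FLCN KO mice (median log2 changes 0.29 and 0.42, against 0.02 and 0.06 over the 71). Of all tested genes 29.3% were higher in Cre mice and 22.5% in FLCN KO mice. Under total-count scaling 12 genes of the mitochondrial chaperones and proteases were higher in Cre mice and 13 in FLCN KO mice, with 0 lower, as were 7900 and 5803 of all 14062 tested genes, with 1748 and 1731 lower. Lonp1, the main protease of the matrix, was 152 to 191 CPM in Cre Chow and 430, 715, 332, 400 and 384 CPM in Cre MCD, and 193, 173, 160, 168 and 165 CPM in FLCN KO Chow and 380 to 524 CPM in FLCN KO MCD. MCD and chow did not overlap in either genotype, and Lonp1 rose by 1.38 ± 0.14 and 1.46 ± 0.14 (edgeR adjusted p = 5.01e-08 and 7.63e-08). Hspa9, the mitochondrial HSP70 that imports and folds proteins ahead of Hspd1, rose by 1.23 ± 0.11 in FLCN KO mice (adjusted p = 2.57e-08) and by 0.78 in Cre mice (adjusted p = 3.38e-06, given beside it after its values were seen).

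On MCD, 3 of the 15 genes of that list were higher in FLCN KO livers, where 8.06% of all tested genes were: Grpel2, an exchange factor of Hspa9 (log2 0.68, edgeR adjusted p = 0.00312), Dnajc19, a part of the import motor (0.27, 0.0161), and Trap1, the mitochondrial HSP90 (0.26, 0.0248). They were named after their values were seen, and the call of Trap1 was lost without Cre MCD 1, 3, 4 or 5 or FLCN KO MCD 6 (adjusted p = 0.0539 to 0.0649), with no count filter (0.068), in a fit of the groups compared alone (0.0792) and under total-count scaling (0.0538). That of Dnajc19 was lost without Cre Chow 1, Cre MCD 2 and Cre MCD 3 (0.23, adjusted p = 0.0665). The diet responses differed between genotypes for Trap1 (0.45 ± 0.11, adjusted p = 0.0139) and Dnajc19 (0.44 ± 0.11, adjusted p = 0.0151). Under total-count scaling both were 0.28 and did not pass (adjusted p = 0.131 and 0.0658), nor did they with no count filter (0.0576 and 0.0589). Trap1 also did not pass without the 5 male chow livers (0.0635), nor Dnajc19 without Cre Chow 1, Cre MCD 2 and Cre MCD 3 (0.0536). Trap1 was 184 to 217 CPM in Cre Chow and 131, 165, 123, 128 and 123 CPM in Cre MCD, so the Cre groups were apart, whereas FLCN KO livers had 163 to 188 CPM on chow and 153 to 176 CPM on MCD.

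**Figure D5:**
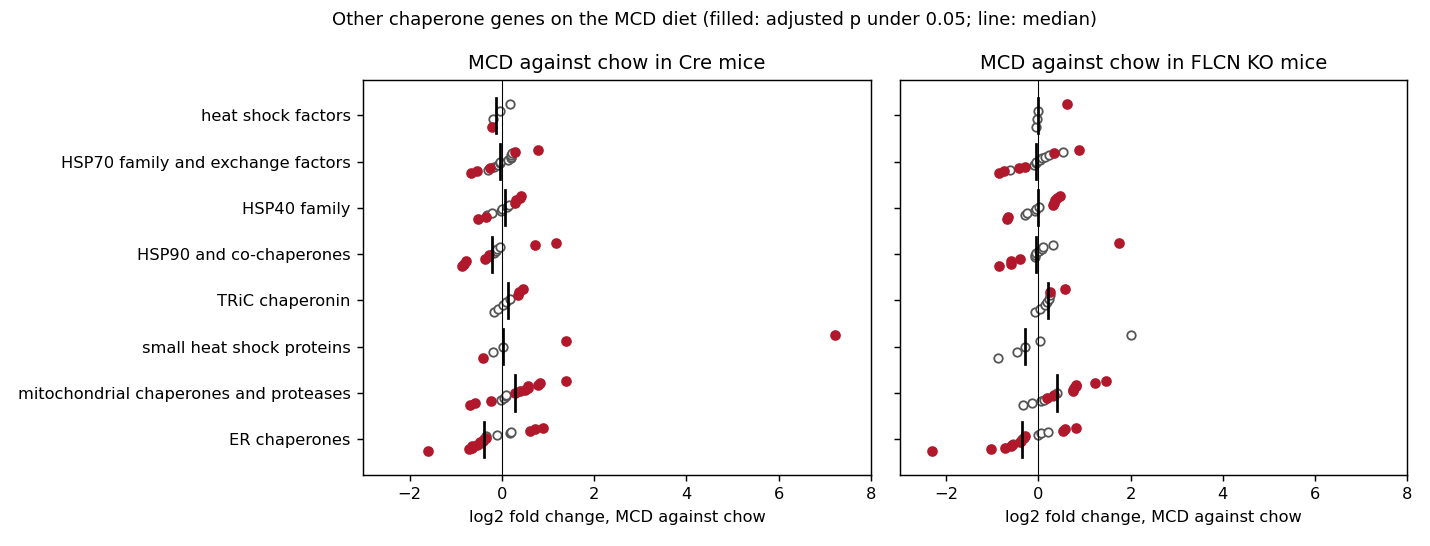
Log2 fold change from chow to MCD in Cre mice (left) and FLCN KO mice (right) for each tested gene of 7 chaperone network lists and the ER chaperones, filled where the edgeR adjusted p was under 0.05, with a line at each list's median. The mitochondrial list has medians of 0.29 and 0.42 and the ER list -0.38 and -0.35, and the point at 7.22 is Hspb7, a fitted value that rests on Cre MCD 3 and on Cre Chow libraries with at most 2 counts.

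The lists that follow stand beside 57.5% of all tested genes called with the diet in Cre mice and 45% in FLCN KO mice. In the HSP90 list 2 of 12 genes rose and 5 fell on MCD in Cre mice (58.3%) and 1 rose and 4 fell in FLCN KO mice (41.7%), and in FLCN KO mice the riser was Fkbp5, a co-chaperone of steroid receptors (1.75 ± 0.24, edgeR adjusted p = 5.27e-06; 1.17 ± 0.23 in Cre mice, adjusted p = 0.000184). In the HSP70 list Stub1, the ubiquitin ligase CHIP that acts on HSP70 clients, rose by 0.88 ± 0.12 in FLCN KO mice (adjusted p = 5.81e-06) and by 0.79 ± 0.12 in Cre mice (adjusted p = 1.06e-05). Hspa12a, a distant HSP70 relative, was 0.85 ± 0.17 higher in FLCN KO livers on chow (adjusted p = 0.00194), and its diet response differed by -1.06 ± 0.23 (adjusted p = 0.00803). Bag4, a relative of Bag3, had a difference between the diet responses of 0.62 ± 0.18 (adjusted p = 0.0388), called in 10 of the 22 fits with a mouse left out. It did not pass with no count filter (edgeR adjusted p = 0.0816), without the 5 male chow livers (0.0908) or under total-count scaling (0.46, 0.0824). In the HSP40 list 4 of 12 genes rose and 2 fell in Cre mice (50%) and 5 rose and 2 fell in FLCN KO mice (58.3%). On chow Dnaja4 was 0.68 ± 0.20 higher (adjusted p = 0.0363) and Dnajc21 0.27 ± 0.08 lower in FLCN KO livers (adjusted p = 0.0499, log2 difference -0.27). With a mouse left out they were called in 16 and 7 of the 22 fits. Neither passed without the 5 male chow livers (edgeR adjusted p = 0.0794 and 0.274). Dnajc21 also did not pass with RLE factors (0.0533), by limma-voom (0.0603), with no count filter (0.196) or with 10 counts in every library (0.0714). Nor did it pass in a fit of the groups compared alone (0.0948), with sex as a covariate (0.0502) or under total-count scaling (-0.11, 0.385). The chaperonin TRiC had 3 and 2 of its 8 genes higher on MCD (37.5% and 25%) and 0 lower.

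Among the other small heat shock proteins, the calls of Hspb7, Cryab and Hspb6 rested on the library with high muscle markers. Hspb7, Cryab and Hspb6, all abundant in muscle, were lower in FLCN KO than in Cre livers on MCD (log2 -4.80 ± 1.36, -1.77 ± 0.54 and -1.28 ± 0.41, edgeR adjusted p = 0.0174, 0.0261 and 0.0364). In Cre MCD 3 they had 37.3, 42.2 and 37.97 CPM, and in the other 4 Cre MCD livers at most 1.41, 6.02 and 8.93 CPM. On MCD in Cre mice Cryab was 1.40 ± 0.53 higher (adjusted p = 0.0298), and without Cre MCD 3 its change was -0.21. Without Cre MCD 3 the genotype differences of Cryab and Hspb6 on MCD were -0.17 and -0.19 (adjusted p = 0.699 and 0.55), and Hspb7 fell under the count limit. Hspb7 had 0 to 0.16 CPM in Cre Chow, at most 2 counts per library, so its fitted diet change of 7.22 in Cre mice depends on the prior count and is neither an estimate of size nor a bound. Hspa12b, an endothelial HSP70 relative, was 0.89 ± 0.29 lower in FLCN KO livers on MCD (log2 difference -0.89, edgeR adjusted p = 0.0408). The difference was -0.51 without Cre MCD 3 (adjusted p = 0.183). Its call was also lost without Cre MCD 2 or 4 or FLCN KO MCD 2, 3, 4 or 6 (adjusted p = 0.0529 to 0.0845). Nor did Hspa12b pass by limma-voom (0.105), with no count filter (0.0882), in a fit of the groups compared alone (0.101) or without the 5 male chow livers (0.0517). Hspb1 had 4.45 CPM in Cre MCD 3 and 2.57 to 3.71 CPM in the other 4 Cre MCD livers. Hspb11, a part of the transport machinery of cilia, had 3.61 CPM there and 3.40 to 4.56 CPM in the others, and fell by 0.41 ± 0.15 on MCD in Cre mice (log2, edgeR adjusted p = 0.0208).

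Of the chaperones of the endoplasmic reticulum, on MCD 3 of the 17 rose and 9 fell in Cre mice and 3 rose and 8 fell in FLCN KO mice, where 28.2% and 22.5% of all tested genes fell (median log2 changes -0.38 and -0.35), but under total-count scaling 6 rose and 2 fell in Cre mice and 4 rose and 4 fell in FLCN KO mice, beside 7900 higher and 1748 lower and 5803 higher and 1731 lower of all 14062 tested genes. Sdf2l1, a co-chaperone of BiP, fell by 1.61 ± 0.24 and 2.31 ± 0.24 (edgeR adjusted p = 7.19e-06 and 1.21e-07) and was 0.87 ± 0.23 lower in FLCN KO livers on MCD (log2 difference -0.87, adjusted p = 0.0133). P4hb, a disulfide isomerase, rose by 0.89 ± 0.09 in Cre and 0.59 ± 0.09 in FLCN KO mice (adjusted p = 6.79e-08 and 2.83e-05), and its relative Pdia6 fell by 0.71 ± 0.13 and 1.02 ± 0.13 (adjusted p = 9.72e-05 and 1.87e-06). Dnajc10, a reductase of the ER, was 0.65 ± 0.10 higher in FLCN KO livers on chow (adjusted p = 0.000243).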

How the data were processed

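Whole-number counts of reads per gene, without normalization, were deposited by the authors for 22 mRNA libraries; the submitters' processing notes name bcl2fastq, Trimmomatic, STAR, HTSeq and GRCm38. Adapters carried molecular identifiers per the study's methods; whether counting used them, the strand setting and the annotation release are not given in the sources used here. Depth was 13751347 to 21144388 counts on genes per library. In R 4.3.3, edgeR 4.0.16 (TMM, 14062 genes averaging 10 or more counts, 1 fit of the 4 groups, two-sided quasi-likelihood test, Benjamini-Hochberg adjustment over all tested genes, threshold 0.05) gave log2 fold changes and their SEs. CPM used TMM-scaled totals. Alternatives used limma 3.58.1, DESeq2 1.42.0, other scalings and filters, a block, sex, and fewer libraries; code was tested on simulated data. Named were all 10 heat shock genes, Hsf1 and Flcn, up to 6 further chaperone genes per comparison by largest change among those past the threshold (mean of at least 1 CPM), and the 5 genes of most alike pattern; exceptions are marked. The members and lists were chosen with earlier results of these data known. Positions follow GENCODE on GRCm38. Promoters were read from RefSeq. The p-values measure the spread between mice, 1 library each.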

Additional observations from a re-analysis of the deposited data

Results flagged for a closer look

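Within the groups of 5 or 6 livers, the gap between the most extreme liver and its neighbour was set against the range of the group for the 10 heat shock genes (40 comparisons, of which chance flags about 1 in 20), and 3 stood out. Hspa8 in Cre Chow 1 had 702 CPM, against 400 to 499 CPM in the other 5 Cre Chow livers. Dnajb1 in Cre Chow 1 had 31.2 CPM, against 21.1 to 24.3 CPM in the others. Hsph1 in Cre MCD 2 had 346 CPM, against 58.5 to 112 CPM in the other 4 Cre MCD livers.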

How the results depend on the processing

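The genotype differences of Hspb1 and the FLCN KO diet changes of Hspb1 and Hspe1 kept direction and call under all alternatives run. Where other results moved, the cause was not tested. Scaling by total counts, chosen after TMM factors were seen to differ between diets, shifted the median log2 change of all genes by 0.42 in Cre and 0.262 in FLCN KO mice (diet) and 0.148 on chow and -0.0101 on MCD (genotype); calls became 7900 higher and 1748 lower, 5803 and 1731, and 1452 and 125, and 177 and 1236 for the interaction, and higher calls made up 81.88, 77.02, 92.07 and 12.53% in place of 50.95, 49.97, 64.03 and 37.28%. Of the heat shock genes 5 then rose in Cre mice, 0 fell, and 3 rose in FLCN KO mice. Signs turned for Hsp90aa1 (0.424), Dnajb1 (0.112), Hspb1 (0.0869) and Hspd1 (0.307) in Cre mice, Hsp90aa1 (0.0266), Dnajb1 (0.06) and Bag3 (0.178) in FLCN KO mice, Hspd1 (0.0411) and Hspe1 (0.136) between genotypes on chow, and Hspa8 (-0.133) and Dnajb1 (-0.0516) for the interaction. Other alternatives turned further signs. Hsp90aa1 in Cre mice was 0.000802 with RLE factors, 0.00143 by limma-voom, 8e-04 by DESeq2, 0.0151 with no count filter, 0.0378 with 10 counts in every library, 0.0217 with sex as a covariate, 0.266 without the 5 chow libraries of low uniquely mapped share (all 5 male chow livers) and 0.0959 without Cre Chow 1, Cre MCD 2 and Cre MCD 3 (added after their values were seen). Between genotypes on MCD, Hsp90aa1 was 0.0279 by limma-voom, 0.00793 with no filter, 0.0419 with the replicate block and 0.0712 without those 3 libraries, and Hspa1b was -0.105 by limma-voom, -0.0784 with the block, -0.122 with sex and -0.0754 with Hspa1a counts added. Between genotypes on chow, Hspe1 was 0.00999 with no filter, 0.00393 with 10 counts in every library, 0.0135 with the groups compared alone, 0.0264 without the 5 libraries and 3e-04 without the 3. Without the 5 libraries Hspa1b in Cre mice was 0.414, Hspa8 and Hsph1 between genotypes on chow 0.0212 and 0.417, and Hspa8 in the interaction -0.209. Without the 3, Cryab in Cre mice was -0.165, Hsph1 on chow 0.105 and Hspa8 on MCD 0.114. Heat shock genes called lower in Cre mice numbered 0 with no filter, with 10 counts in every library, with the groups compared alone, without the 5 libraries and without the 3, in place of 1; those called higher were 3 without the 5 and 2 without the 3. Called higher in FLCN KO mice were 2 by DESeq2, with 10 counts in every library and with the groups compared alone, and 3 without the 3 libraries, in place of 1, and called lower 2 with sex. Between genotypes on MCD, 0 were lower by limma-voom, with the groups compared alone, with the block and without the 3, 2 without the 5, and 3 were higher without the 3. In the interaction 1 was lower without the 5. The interaction needs all groups and was not run with the groups compared alone. All genes called lower between genotypes on chow were 436, against 185 with no filter, 289 with 10 counts in every library, 247 with the block and 121 without the 5 libraries (which left 374 of 776 higher). For the interaction 463 were higher and 779 lower, against 214 higher with no filter, 199 and 353 with the block, and 470 lower without the 5. With each mouse left out in turn, heat shock genes called ranged from 0 to 3 higher and 0 to 1 lower in Cre mice, 1 to 2 each way in FLCN KO mice, 1 to 2 higher and 0 to 1 lower on MCD, and 0 to 1 each way in the interaction. All genes ranged from 499 to 883 higher and 170 to 553 lower on chow, and 272 to 577 higher in the interaction. Signs turned within Hsp90aa1 (-0.174 to 0.167 in Cre mice, -0.0995 to 0.162 on MCD), Hspa1b (-0.0721 to 0.353 on chow, -0.312 to 0.177 on MCD, -0.472 to 0.104 in the interaction), Hsph1 (-0.348 to 0.105 on chow), Hspe1 (-0.0688 to 0.0381 on chow), Hspa8 (-0.0942 to 0.161 in the interaction) and Cryab (-0.207 to 1.69 in Cre mice). The numbers do not pair the mice: same-numbered livers had mean correlations of their deviations of -0.0842, -0.0112, 0.0614 and 0.129 in the diet comparisons (Cre, FLCN KO) and genotype comparisons (chow, MCD), and 0, 1, 1 and 2 of 5 pairs correlated best with their own number. Among the 10 genes the block took away the call of Hsph1 on MCD and no other; it also took away those of Flcn and Dnajc21 on chow, Cryab in Cre mice, Cryab, Hspb6 and Hspa12b on MCD and Bag4 in the interaction. Low counts limit Hspa1a, and reads shared between copies limit Hspa1a and Hspa1b. Hspb1, Hsp90aa1, Hspa8, Hspd1 and Hspe1 also share 46.4, 42.8, 33.0, 31.0 and 14.6% of their 75-base stretches with other genes.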

Other observations

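Other responses were read beside the heat shock genes. Rbm3 and Cirbp, RNA-binding proteins known to rise at low temperature, both rose on MCD, Rbm3 by 1.54 on the log2 scale in Cre and 1.27 in FLCN KO mice (edgeR adjusted p = 4.53e-10 and 2.17e-08) and Cirbp by 0.53 and 0.93 (adjusted p = 0.0097 and 0.000149). The Cirbp call in Cre mice was lost without Cre MCD 5 (0.32, adjusted p = 0.054) and without the 5 male chow livers (0.44, adjusted p = 0.0707). Rbm3 was 11.8 to 17.5 CPM in Cre Chow and 38.6 to 54.6 CPM in Cre MCD. The lists that follow stand beside 57.5% of all tested genes called with the diet in Cre mice and 45% in FLCN KO mice. Of 15 tested immediate early genes, 6 rose and 3 fell in Cre mice and 3 rose and 1 fell in FLCN KO mice, and 4 were lower in FLCN KO than in Cre livers on MCD (8.53% of all genes were), with Atf3, a stress-induced factor, among them. Between genotypes on chow 2 were higher and 1 lower (5.52% and 3.1% of all genes), and for the difference between diet responses Atf3, Ier3 and Klf6 passed, with a lower response in FLCN KO mice (5.54% of all genes). Of 17 clock genes, 2 rose and 3 fell in Cre mice and 2 rose and 2 fell in FLCN KO mice, and 0 passed between genotypes on either diet. Of 9 hepatocyte markers, 6 fell on MCD in each genotype, and of 5 endothelial markers 3 fell in Cre and 4 in FLCN KO mice. The hepatocyte markers Pck1 and Ttr were lower in FLCN KO than in Cre livers on chow (median of the 9 -0.45, 3.1% of all genes lower). On MCD, Tat and Pck1 were lower in FLCN KO livers (8.53% of all genes). Ttr passed for the difference between diet responses, with a higher response in FLCN KO mice (3.29% of all genes). Both tested neutrophil markers, S100a8 and S100a9, rose on MCD in both genotypes. Of 7 tested smooth muscle and stellate cell markers, 5 rose in Cre and 0 passed in FLCN KO mice, and 6 were lower in FLCN KO than in Cre livers on MCD (8.53% of all genes were lower). The 8 listed markers, with Lrat most abundant and none at 0 in all libraries, summed to 114, 80.7, 292, 122 and 80.2 CPM in Cre MCD and to 47.2 to 72.6 CPM in FLCN KO MCD, with the highest value in Cre MCD 3. For the difference between diet responses 3 of the 7 passed, all with a lower response in FLCN KO mice (5.54% of all genes). Without Cre MCD 3, 4 of the smooth muscle and stellate markers rose and 1 fell in Cre mice, 3 were lower in FLCN KO livers on MCD and 2 passed for the difference. Of 5 bile duct markers, 3 rose in Cre mice and 0 passed in FLCN KO mice, and Spp1 passed for the difference between responses (8.83% of all genes passed). Between genotypes Spp1 was higher in FLCN KO livers on chow and Sox9 on MCD. Of 5 macrophage markers, 1 rose and 1 fell in Cre mice, 3 fell in FLCN KO mice, and 1 passed for that difference.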
